A study of Mus musculus with 35 samples.

Results

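Chromatin accessibility was followed around 9 genes that answer to FGF-ERK signalling in mouse embryonic stem cells: Spry2, Spry4, Dusp4, Dusp6, Etv4, Etv5, Egr1, Myc and Fos. They were chosen by name as feedback inhibitors and response genes of the pathway, with earlier results of these data known. Counts of called members set beside all windows are therefore a description and not an independent check. The region read for each gene ran from 20 kb before to 20 kb after it (GRCm38). These are 9 of the 35284 gene windows that could be measured, and they hold 240 tiles of 2 kb, of which 117 were accessible enough to test. The readout was ATAC-seq on 10000 cells per library, an assay that cuts and tags open DNA with a transposase.

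The TET_KO line lacks all 3 TET dioxygenases (triple knockout of Tet1, Tet2, Tet3), which turn 5-methylcytosine into its oxidised forms. TET_WT is its parental wild-type line. The DNMT_KO line lacks the enzymes that place and maintain DNA methylation (triple knockout of Dnmt1, Dnmt3a, Dnmt3b). DNMT_WT is its parental wild-type line. Every line was sampled as embryonic stem cells kept in 2i and Lif (D0) and on the way to epiblast-like cells after 1 day (D1) and 2 days (D2). This makes 12 groups of 3 libraries, but for TET_KO at D2 with 2 (35 in all). Each knockout is represented by 1 line, and the labels do not say whether it is 1 clone. Nothing says that replicates came from different cultures, so the p-values measure only the spread among these libraries, which may be technical. In bulk libraries, fewer cells with an open site and less signal per cell cannot be told apart.

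FGF ligands act through receptor tyrosine kinases and Ras on the kinases Raf, MEK and ERK. The 2i medium holds an inhibitor of MEK, so ERK signalling is low in naive stem cells at D0 and is released when the cells leave 2i for the formative state. ERK output is read from immediate early and ETS genes, and it is damped by the inhibitors that it induces, the Sprouty proteins upstream and the dual-specificity phosphatases at ERK itself.

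In the Spry2, Dusp6 and Etv5 windows the tile with the gene start was the most accessible, yet it was not called in any comparison. Promoters of Spry2, Dusp6, Etv5 and Fos are therefore shown. Each is the 250 bases before the start, 5′ to 3′ on the gene's strand, from RefSeq (GRCm38.p6): Spry2 at chr14:105896820-105897069 (minus), Dusp6 at chr10:99262981-99263230 (plus), Etv5 at chr16:22439571-22439820 (minus) and Fos at chr12:85473640-85473889 (plus). Capitals mark the GC box (GGGCGG on either strand).
Spry2: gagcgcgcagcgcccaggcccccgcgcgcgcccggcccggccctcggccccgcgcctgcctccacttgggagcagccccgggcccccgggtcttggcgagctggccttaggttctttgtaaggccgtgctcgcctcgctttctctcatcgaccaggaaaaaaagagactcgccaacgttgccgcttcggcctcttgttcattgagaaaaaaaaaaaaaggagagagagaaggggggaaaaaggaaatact
Dusp6: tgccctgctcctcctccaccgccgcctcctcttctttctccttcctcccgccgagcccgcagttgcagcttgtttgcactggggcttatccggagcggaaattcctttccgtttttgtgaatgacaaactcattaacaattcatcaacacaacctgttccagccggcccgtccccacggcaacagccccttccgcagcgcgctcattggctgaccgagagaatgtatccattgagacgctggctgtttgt
Etv5: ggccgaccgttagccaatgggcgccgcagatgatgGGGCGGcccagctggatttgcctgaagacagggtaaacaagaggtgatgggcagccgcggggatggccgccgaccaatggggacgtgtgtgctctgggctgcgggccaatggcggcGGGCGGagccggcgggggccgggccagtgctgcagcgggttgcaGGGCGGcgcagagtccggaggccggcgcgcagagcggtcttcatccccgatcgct
Fos: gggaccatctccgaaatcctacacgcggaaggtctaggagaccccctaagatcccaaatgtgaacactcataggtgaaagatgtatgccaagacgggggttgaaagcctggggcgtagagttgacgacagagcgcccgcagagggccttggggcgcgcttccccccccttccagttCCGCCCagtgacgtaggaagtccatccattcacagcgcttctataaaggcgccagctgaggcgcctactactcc
GC content was 62.4% with 23 CpG in Spry2, 56.4% with 16 CpG in Dusp6, 71.2% with 27 CpG in Etv5 and 58.4% with 15 CpG in Fos. The printed Etv5 promoter held 3 GC boxes, which lay 215 to 210, 99 to 94 and 55 to 50 bases before the start. The Fos promoter held 1 on the minus strand, 74 to 69 bases before its start. RefSeq gives Etv5 another start inside the gene. The 250 bases before that start (chr16:22438369-22438618, not printed) had 62.0% GC, 18 CpG and no GC box. A GC box stood in 32.7% of the 32851 promoters of the same length. None of the 4 printed promoters held the exact letters CCGGAA (an ETS site, in 3952 of the promoters), TGACGTCA (the cyclic AMP element, 1.55%) or TGANTCA (the AP-1 site, 6.75%). Nor did they hold CACGTG (the E-box, 6.02%) or the CArG box (1.47%). All were searched on both strands. Forms that differ from these letters were not counted. Examples are the GGAA in the printed Spry2, Dusp6 and Fos letters and the TGACGT in those of Fos. Promoters of Spry4, Dusp4, Etv4, Egr1 and Myc are not shown.

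The libraries held 4172681 to 23686796 reads in tiles, and the median tested tile of a library 5 to 40 reads. Values are log2 RPKM after quantile normalisation over the tested tiles, and the level of a window is the mean over its tested tiles. D1 libraries held 5.62 to 46.8% mitochondrial reads and the others 0%, and D1 against D0 cannot be told apart from that difference. The D1 share ran from 8.37 to 35% in TET_KO and from 5.62 to 19.2% in TET_WT, and from 6.05 to 46.8% in DNMT_KO and from 9.93 to 28.9% in DNMT_WT. The tile inside Tet3 with the clearest gap between the TET lines (chr6:83372001-83374000) held 0 to 5 reads in the TET_KO libraries and 7 to 26 in the TET_WT libraries. It was picked for that gap, so it is no independent check of the labels. It held 2 to 7 reads in DNMT_KO and 5 to 11 in DNMT_WT at D0. At D2 it held 2 to 10 and 2 to 7 in those lines. Of 9 naive markers, 5 fell at D2 against D0 in TET_KO, 6 in TET_WT, 6 in DNMT_KO and 8 in DNMT_WT, and of 7 formative markers 1, 4, 2 and 3 rose in those lines. Of all 35284 windows, 400, 1329, 2096 and 1630 changed in those lines by the same rule. Those that rose numbered 77, 541, 888 and 668, and the rest fell.

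The response to leaving 2i was read first, as D2 against D0 in each line. Spry4 was the member that opened in most lines: its window rose in TET_WT, DNMT_KO and DNMT_WT. Egr1 rose in DNMT_KO and DNMT_WT, and Myc rose in DNMT_WT. No member fell in any line. The count of members called higher was 0 of 9 in TET_KO, where 0.218% of all windows were called higher, and 1 of 9 in TET_WT, where 1.53% were. It was 2 of 9 in DNMT_KO, beside 2.52% of all windows, and 3 of 9 in DNMT_WT, beside 1.89%. The median log2 change of the 9 windows was 0.28 in TET_KO, 0.27 in TET_WT, 0.14 in DNMT_KO and 0.33 in DNMT_WT, where the median of all windows lay between 0.04 and 0.06. On the values as deposited, before quantile normalisation, 0 members were called at D2 in any line, so the Spry4, Egr1 and Myc calls were all lost. Chromosome 18 carries Spry4 and Egr1, and chromosome 15 carries Myc. In tiles outside the tested set, the chromosome 18 level changed by 0.03 in TET_KO, 0.07 in TET_WT and 0.13 in DNMT_WT. These libraries did not overlap between the days. The change in DNMT_KO was -0.02, and that of chromosome 15 in DNMT_WT was 0.10, with overlap. In DNMT_WT the median window change was 0.15 on both chromosomes, with 3.77% called higher on 18 and 2.62% on 15. The cause was not tested. Windows and tiles were called at an adjusted p under 0.05 in limma, 2-sided, with Benjamini-Hochberg adjustment over all windows or all tested tiles.

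**Figure D1:**
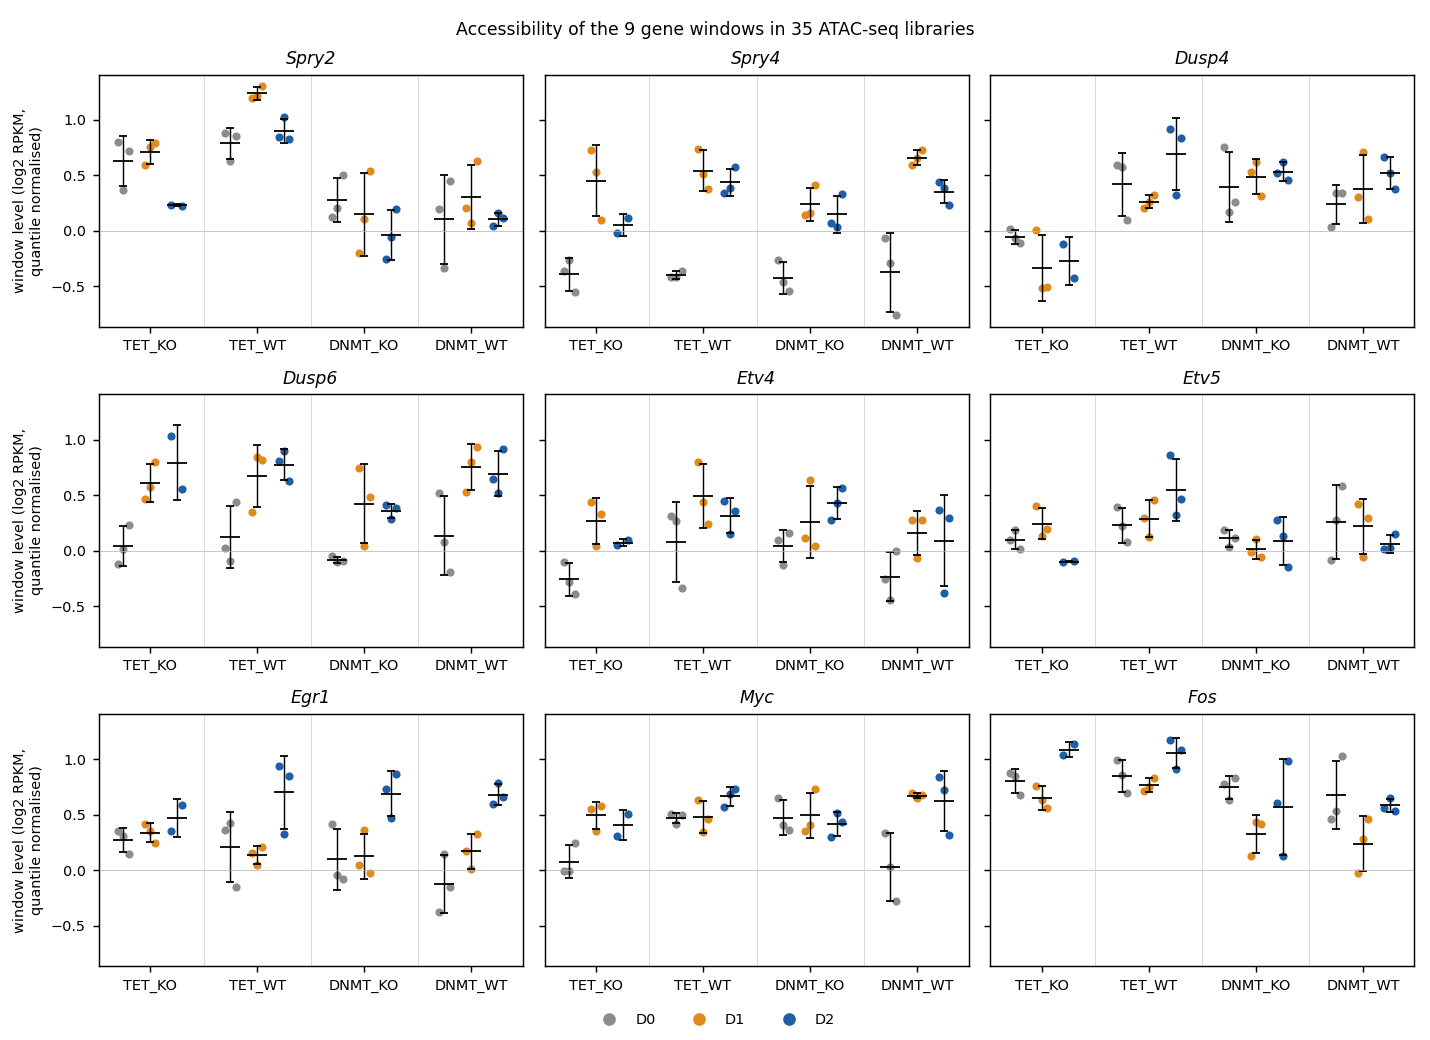
Window level of each member (log2 RPKM, quantile normalised) in every library, by line and day, with the group mean and SD in black. In the Spry4 panel the D1 and D2 points lie above the D0 points in every line, and in the Dusp4 panel the TET_KO points lie low.

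At D1 against D0, members called higher were 1 of 9 in TET_KO (all windows, 0.278%), 1 of 9 in TET_WT (0.714%), 1 of 9 in DNMT_KO (0.7%) and 2 of 9 in DNMT_WT (1.19%), and 0 were called lower. These comparisons share the D0 libraries with those at D2. Spry4 was the member called in all 4 lines, and Myc was the other one in DNMT_WT. The median change of the 9 windows was 0.15 in TET_KO, 0.06 in TET_WT, 0.03 in DNMT_KO and 0.30 in DNMT_WT, with the median of all windows at 0.01 to 0.03. On the values as deposited, 4 members were called higher in TET_KO, 7 in TET_WT, 2 in DNMT_KO and 7 in DNMT_WT, where the median of all windows was 0.45, 0.63, 0.45 and 0.62.

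**Figure D2:**
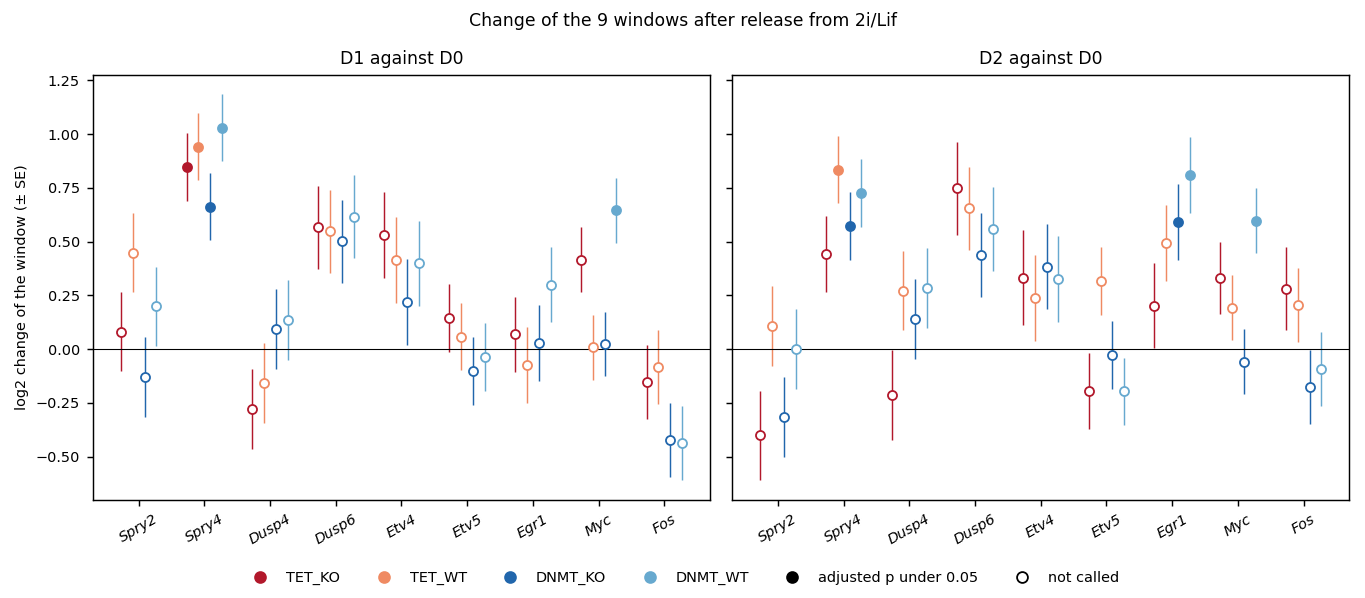
Log2 change of each member window with its SE at D1 and at D2, against D0, in the 4 lines (filled points are called). Spry4 points lie between 0.44 and 1.03 and are called in 7 of 8, Dusp6 points lie between 0.44 and 0.75 with none called, and Spry2, Dusp4, Etv5 and Fos lie on either side of 0.

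Spry4 (chr18:38586247-38601347; 13 of 28 tiles tested) and Spry2 (chr14:105891947-105896819; 10 of 22 tiles tested) encode Sprouty proteins, which block the step between the receptor and Ras or Raf. The Spry4 window, which also holds sequence of Arhgap26, stood at -0.02 and 0.12 in the TET_KO libraries of D2 and at -0.37, -0.26 and -0.55 in those of D0. In TET_WT it stood at 0.34, 0.39 and 0.58 at D2 and at -0.42, -0.42 and -0.36 at D0. The D2 libraries lay above the D0 libraries in each of these lines, and those of TET_WT lay higher at D2 than those of TET_KO. In DNMT_KO the levels were 0.07, 0.04 and 0.34 at D2 and -0.27, -0.46 and -0.55 at D0. In DNMT_WT they were 0.44, 0.38 and 0.24 at D2 and -0.06, -0.29 and -0.76 at D0. The days did not overlap in these lines either. The change was 0.44 ± 0.18 in TET_KO (SE, n = 2 and 3, limma adjusted p = 0.27), 0.84 ± 0.16 in TET_WT (n = 3 each, 0.0018), 0.57 ± 0.16 in DNMT_KO (0.028) and 0.73 ± 0.16 in DNMT_WT (0.0068). The change of TET_KO differed from that of TET_WT by -0.39, which was not called.

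At D1 the Spry4 levels were 0.73, 0.53 and 0.10 in TET_KO, 0.74, 0.51 and 0.38 in TET_WT, 0.14, 0.16 and 0.41 in DNMT_KO and 0.59, 0.65 and 0.73 in DNMT_WT. All of them lay above the D0 levels of the same line. The change against D0 was 0.85 in TET_KO (limma adjusted p = 0.010), 0.94 in TET_WT (0.0024), 0.66 in DNMT_KO (0.030) and 1.03 in DNMT_WT (0.00059), each with an SE of 0.16. The group means of D1 were 0.45, 0.54, 0.24 and 0.66 in TET_KO, TET_WT, DNMT_KO and DNMT_WT, and those of D2 were 0.05, 0.44, 0.15 and 0.35. On the values as deposited, before quantile normalisation, the D2 change of Spry4 was 0.73 in TET_WT, 0.47 in DNMT_KO and 0.65 in DNMT_WT, and was not called in any of them (adjusted p = 0.31, 0.43 and 0.23). Fitted on only the groups compared, it was not called in any of them either (0.051, 0.13 and 0.14). The call in TET_WT held without any 1 library at either day and that in DNMT_WT at D1 likewise, whereas DNMT_WT at D2 was not called without D0 replicate 3 (0.53, adjusted p = 0.066). DNMT_KO was called without D0 replicate 1 and without replicate 2 of D1 or D2, and in none of the other such fits (adjusted p up to 0.12), and TET_KO at D1 was not called without D0 replicate 3, D1 replicate 1 or D1 replicate 2 (up to 0.081).

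The called Spry4 tiles lay outside the gene. Of its 13 tested tiles, 12 changed by more than 0 at D2 against D0 in TET_KO, 12 in TET_WT, 10 in DNMT_KO and 12 in DNMT_WT. The tile chr18:38572001-38574000, centred at -13.25 kb from the lower end of the gene, held 9 and 26 reads in TET_KO at D2 and 11, 9 and 4 at D0. It held 32, 39 and 54 reads in TET_WT at D2 and 33, 12 and 19 at D0, from libraries of unequal depth. In normalised log2 RPKM the TET_WT libraries were at 1.05, 1.25 and 1.42 at D2 and at -0.35, -0.64 and -0.06 at D0. The DNMT_WT libraries were at 1.02, 1.09 and 1.00 at D2 and at 0.49, -0.98 and -1.40 at D0. Neither pair of groups overlapped. The tile rose by 1.59 ± 0.39 in TET_WT (limma adjusted p = 0.015) and by 1.66 ± 0.39 in DNMT_WT (0.0065), and changed by 0.87 in TET_KO and 0.94 in DNMT_KO, which were not called. At D1 it rose by 1.61 in TET_KO (0.030), 1.91 in TET_WT (0.0049) and 1.89 in DNMT_WT (0.0032), and changed by 0.95 in DNMT_KO, not called. In the 6 fits that each left out 1 library, the tile was called at D2 in 2 for TET_WT and 4 for DNMT_WT, and at D1 in 0 for TET_KO (adjusted p up to 0.17), 4 for TET_WT and 5 for DNMT_WT. The next tile, chr18:38574001-38576000, rose by 1.54 in TET_WT at D2 and by 1.92 in DNMT_WT at D1, and it was also called in DNMT_WT at D2, with calls in 1, 5 and 2 of the 6 such fits. A further pair of tiles were called at D1, chr18:38576001-38578000 in DNMT_KO (1.92) and chr18:38584001-38586000 in DNMT_WT (1.61), calls kept in 4 and 2 of 6 such fits. The tile with the upper end of the gene, chr18:38600001-38602000, stood higher than any of these at D0, with group means of 0.91 to 1.48, and changed at D2 by 0.16 in TET_KO, 0.20 in TET_WT, -0.09 in DNMT_KO and 0.34 in DNMT_WT, with no call.

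**Figure D3:**
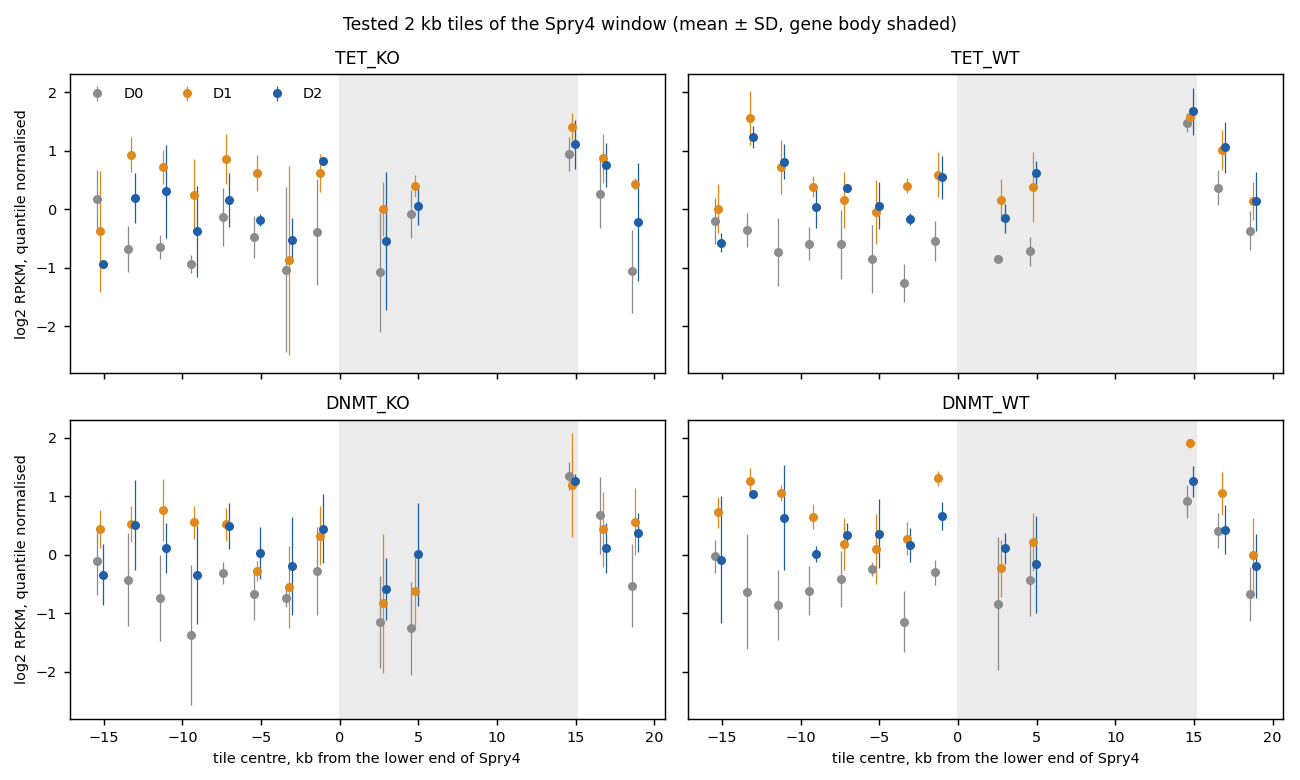
Tested 2 kb tiles of the Spry4 window by distance from the lower end of the gene (kb), as normalised log2 RPKM, mean and SD of the libraries of each day, in the 4 lines, with the gene body shaded. The tiles at -13.25 and -11.25 kb lie low at D0 and higher at D1 and D2, and the tile at the upper end is high at all 3 days.

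The Spry2 window showed no called change with time, with log2 changes from -0.40 in TET_KO at D2 to 0.45 in TET_WT at D1. Inside it, 1 tile fell at D2 in 3 lines. The tile chr14:105900001-105902000, centred 4.18 kb before the gene's start, held -0.93 and -0.51 in TET_KO at D2 and 1.39, 0.84 and 2.06 at D0. In TET_WT it held 0.55, 0.84 and 0.49 at D2 and 1.72, 1.16 and 2.26 at D0. No D2 library of the TET lines reached a D0 library of its own line. It stood at -1.69, -0.41 and 0.30 at D2 and 1.46, 0.72 and 1.02 at D0 in DNMT_KO, and at -2.04, -0.09 and 1.00 at D2 and 0.93, 0.95 and 1.46 at D0 in DNMT_WT, where the days overlapped. The tile fell by 2.15 ± 0.47 in TET_KO (limma adjusted p = 0.0038), by 1.67 ± 0.42 in DNMT_KO (0.0098) and by 1.49 ± 0.42 in DNMT_WT (0.028), and its change of -1.09 in TET_WT was not called (0.23). The lowest of these libraries held 2 reads, and the call was kept in 3 of 5 fits without 1 library in TET_KO, 4 of 6 in DNMT_KO and 2 of 6 in DNMT_WT. The tile with the Spry2 start, chr14:105896001-105898000, whose promoter letters are given above, kept group means of 1.99 to 2.72 over all 12 groups. A tile below the gene, chr14:105888001-105890000, fell by 1.84 in DNMT_KO at D1 (adjusted p = 0.044, kept in 1 of 6). It held 0, 0 and 3 reads there at D1 and 8, 10 and 11 at D0. The size of this fall therefore depends on the value given to an empty tile and on depth.

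Dusp6 (chr10:99263231-99267489; 8 of 22 tiles tested) and Dusp4 (chr8:34807610-34819894; 13 of 26 tiles tested) encode phosphatases that remove phosphate from ERK. The Dusp6 window stood at 1.03 and 0.55 at D2 and at -0.12, 0.01 and 0.23 at D0 in TET_KO, and at 0.80, 0.89 and 0.63 at D2 and 0.02, -0.10 and 0.44 at D0 in TET_WT. In DNMT_KO it stood at 0.41, 0.28 and 0.38 at D2 and at -0.05, -0.10 and -0.09 at D0, and in DNMT_WT at 0.65, 0.52 and 0.92 at D2 and at 0.52, 0.07 and -0.19 at D0. The days did not overlap in TET_KO, TET_WT and DNMT_KO, and in DNMT_WT the lowest D2 library and the highest D0 library were level to 2 decimals. The change was above 0 in all 8 comparisons with D0, which share their D0 libraries within a line, and ranged from 0.44 to 0.75. None was called (lowest adjusted p = 0.054, TET_WT at D2). In TET_KO at D2, 2 tiles beside the gene rose. The one below the start, chr10:99260001-99262000, held 2.32 and 2.20 at D2 and -0.06, 0.90 and 0.47 at D0, a rise of 1.83 ± 0.37 (limma adjusted p = 0.0015), and chr10:99268001-99270000 past the far end rose by 2.09 (0.0074). Without 1 library they were called in 4 and 2 of 5 fits. The start tile, chr10:99262001-99264000, changed at D2 by 0.78 in TET_KO, 0.47 in TET_WT, 0.21 in DNMT_KO and 0.45 in DNMT_WT, not called.

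The Dusp4 window, which also holds sequence of Tnks, showed no called change with time, and its 8 changes lay between -0.28 and 0.28. One of its tiles fell in TET_KO at D2 and is described with the knockout. Etv4 (chr11:101769747-101785310; 14 of 28 tiles tested, with sequence of Dhx8) and Etv5 (chr16:22381313-22439570; 30 of 49 tiles tested) encode ETS transcription factors induced by FGF. Etv4 changed by 0.22 to 0.53 in all 8 comparisons, with none called (lowest adjusted p = 0.25). Its tile chr11:101768001-101770000 at the lower end of the gene rose by 1.62 in DNMT_WT at D1 (limma adjusted p = 0.048), a call kept in 1 of 6 fits without 1 library. Etv5 changed by -0.20 to 0.32, with none called. A tile inside Etv5, chr16:22394001-22396000, held -0.86, 0.43 and -0.66 at D2 and 1.41, 1.54 and 1.54 at D0 in DNMT_WT, and it fell by 1.86 ± 0.37 (adjusted p = 0.00074), a call kept in all 6 fits without 1 library. Its changes in the other lines were -0.85 in TET_KO, -0.71 in TET_WT and -0.91 in DNMT_KO, not called. A neighbouring tile, chr16:22398001-22400000, fell by 1.30 in DNMT_KO (0.030, kept in 1 of 6). The Etv5 start tile, chr16:22438001-22440000, had group means of 1.76 to 2.35 with no call.

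Egr1 (chr18:34861207-34864956; 13 of 21 tiles tested, with sequence of Reep2), Myc (chr15:61985341-61990361; 9 of 22) and Fos (chr12:85473890-85477274; 7 of 22) encode transcription factors of the early response to growth signals. The Egr1 window stood at 0.73, 0.47 and 0.87 at D2 and at 0.42, -0.04 and -0.08 at D0 in DNMT_KO, a rise of 0.59 ± 0.18 (limma adjusted p = 0.043). In DNMT_WT it stood at 0.60, 0.79 and 0.66 at D2 and at -0.38, 0.14 and -0.15 at D0, a rise of 0.81 ± 0.18 (0.0072). Every D2 library lay above every D0 library in these lines. In TET_KO the change was 0.20 and in TET_WT 0.49, not called, and at D1 the 4 changes lay between -0.07 and 0.30. The DNMT_KO call was lost under 10 of 15 other settings and held only without D0 replicate 1 and without D2 replicate 2 among the fits that left out 1 library (otherwise adjusted p up to 0.16). The DNMT_WT call held under 10 of 15 and was lost without D0 replicate 1 (0.68, adjusted p = 0.055).

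The Egr1 tile that rose most in DNMT_WT was at the upper end of the gene, chr18:34864001-34866000. It held 0.94, 1.37 and 1.46 at D2 and -1.70, -0.42 and -0.38 at D0, and rose by 2.09 ± 0.44 (limma adjusted p = 0.0014), a call kept in all 6 fits without 1 library. At D1 it rose by 1.55 (0.0495), with 1 library of 3 within the D0 range, and was called in 2 of 6. Further below the gene, chr18:34852001-34854000 rose by 1.94 in DNMT_WT and chr18:34850001-34852000 by 1.45 in DNMT_KO at D2, calls kept in 3 and 2 of 6 such fits. The tile at the lower end, chr18:34860001-34862000, was the most accessible of the window, with group means of 2.09 to 2.68, and was not called.

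In DNMT_WT the Myc window stood at 0.33, 0.03 and -0.28 at D0, at 0.70, 0.65 and 0.68 at D1 and at 0.84, 0.72 and 0.32 at D2. The lowest D2 library lay just below the highest D0 library, while D1 did not overlap D0. The rise was 0.60 ± 0.15 at D2 (limma adjusted p = 0.020) and 0.65 ± 0.15 at D1 (0.017). Neither was called without D0 replicate 2 or D0 replicate 3. The D2 call was also lost without D2 replicate 1 or 2 and the D1 call without D1 replicate 1 or 3 (adjusted p up to 0.13). In the other lines the changes lay between -0.06 and 0.42. The tile with the lower end of Myc, chr15:61984001-61986000, changed alike in sign in all 8 comparisons. It rose by 1.03 in TET_KO at D2 (0.034), where it held 2.32 and 2.46 at D2 and 1.59, 1.38 and 1.12 at D0, and by 0.96 in DNMT_WT at D1 (0.026), calls kept in 1 of 5 and 1 of 6 fits without 1 library. The others were 0.61, 0.49 and 0.65 at D2 in TET_WT, DNMT_KO and DNMT_WT, and 0.89, 0.68 and 0.88 at D1 in TET_KO, TET_WT and DNMT_KO. In DNMT_WT, chr15:62008001-62010000 rose by 2.00 at D2 and chr15:61988001-61990000 inside the gene by 1.80 at D1, calls kept in 4 and 5 of 6 such fits. The first of these tiles held 6, 3 and 0 reads at D0 and 8, 11 and 9 at D2. The size of its rise therefore depends on the value given to an empty tile. From D0 to D2 its group mean went from 0.13 to -0.82 in DNMT_KO and from -0.19 to -0.61 in TET_WT. In TET_KO it went from -1.10 to -0.88. Fos, whose window changed by -0.44 to 0.28, had no called window or tile.

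Over the 117 tested tiles of the members, 3 were called higher and 2 lower at D2 against D0 in TET_KO, where 1.4% of all tested tiles were called in either direction. The counts were 2 and 0 in TET_WT (1.67%), 1 and 2 in DNMT_KO (3.19%) and 5 and 2 in DNMT_WT (2.84%). At D1 they were 1 and 0 in TET_KO (0.543%), 1 and 0 in TET_WT (0.549%), 1 and 1 in DNMT_KO (1.11%) and 7 and 0 in DNMT_WT (1.38%). Over all comparisons, 28 different tiles gave 40 calls, of which 24 lay outside the genes, 10 inside and 6 at a gene end. The start tiles of Spry2, Dusp6, Etv5 and Fos were among none of them. Of the 40 calls, 3 were kept in every fit without 1 library, 36 in some and 1 in none.

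The level in TET_KO was compared with TET_WT, its parental line, at each day and as the mean over days. Dusp4, Spry2 and Etv5 were lower in TET_KO over the 3 days, and no member was called higher. Of all 35284 windows, 7039 were called over the days, of which 3146 were lower and the rest higher. Dusp4 and Etv5 were also called at D2 alone. Members called lower were 0 of 9 at D0, where 4.39% of all windows were lower, 0 of 9 at D1 (2.53%), 2 of 9 at D2 (1.59%) and 3 of 9 in the mean over days (8.92%). The median difference of the 9 windows was -0.13 at D0, -0.09 at D1, -0.26 at D2 and -0.21 over the days, and that of all windows was 0.06, 0.07, 0.07 and 0.07. Leaving out 1 library gave medians of the 9 from -0.189 to -0.0707 at D0, from -0.172 to -0.0667 at D1, from -0.41 to -0.223 at D2 and from -0.247 to -0.181 over the days. On the values as deposited 0 members were called at D2 and 2 over the days, Dusp4 and Spry2. These comparisons use the same libraries as the changes with time.

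Dusp4 had the largest difference. Its window stood at 0.01, -0.07 and -0.11 in TET_KO and 0.59, 0.58 and 0.09 in TET_WT at D0, and at 0.01, -0.51 and -0.51 in TET_KO and 0.20, 0.26 and 0.32 in TET_WT at D1. At D2 it stood at -0.12 and -0.42 in TET_KO and at 0.92, 0.32 and 0.84 in TET_WT. The TET_KO libraries lay below the TET_WT libraries on each day. The difference was -0.68 ± 0.11 over the days (SE, limma adjusted p = 5.5e-05) and -0.96 ± 0.21 at D2 (n = 2 and 3, 0.012). All 13 tested Dusp4 tiles were below 0 in the mean over days and 8 were called lower, the 3 furthest being chr8:34814001-34816000, chr8:34824001-34826000 (-0.99) and chr8:34812001-34814000 (-0.98), whose calls were kept in 17, 9 and 8 of 17 fits without 1 library. The tile chr8:34822001-34824000, 3.11 kb past the upper end, held 2 and 5 reads in TET_KO and 25, 14 and 26 reads in TET_WT at D2. Its difference was -2.75 ± 0.53 (adjusted p = 0.0058), and it was the 1 member tile called in TET_KO against TET_WT at D2, where 0.159% of all tiles were. That call was kept in 3 of 5 fits without 1 library. This tile also fell by 2.00 in TET_KO at D2 against D0 (limma adjusted p = 0.032, kept in 1 of 5). The 3-day call of the window held without any 1 of the 17 libraries, whereas that at D2 held only without TET_WT replicate 2 (otherwise adjusted p up to 0.19).

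Spry2 stood at 0.80, 0.37 and 0.72 in TET_KO and 0.88, 0.63 and 0.85 in TET_WT at D0, where the lines overlapped. At D1 it stood at 0.59, 0.75 and 0.79 in TET_KO and 1.19, 1.22 and 1.30 in TET_WT, and at D2 at 0.23 and 0.22 in TET_KO and 0.84, 1.02 and 0.83 in TET_WT. No TET_KO library reached a TET_WT library at D1 or D2. The difference was -0.45 ± 0.11 over the days (limma adjusted p = 0.0044), and -0.53 at D1 and -0.67 at D2 were not called (0.12 and 0.083). One Spry2 tile, chr14:105894001-105896000 inside the gene, was called lower over the days (-0.73, kept in 16 of 17 fits without 1 library). The DNMT lines had lower Spry2 levels than TET_WT, with group means of -0.04 to 0.30, but the DNMT lines and the TET lines were not tested against each other.

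Chromosomes moved with these differences. In tiles outside the tested set, the mean log2 read level of chromosome 8, which carries Dusp4, differed between TET_KO and TET_WT by -0.45 at D0, -0.54 at D1 and -0.48 at D2, and that of chromosome 14, which carries Spry2, by -0.37, -0.38 and -0.35, with no overlap of libraries. At D2 the chromosome 8 level ran from -0.11 to -0.10 in TET_KO, against 0.34 to 0.40 in TET_WT, and it ran from 0.37 to 0.42 in DNMT_KO, against 0.37 to 0.43 in DNMT_WT. The chromosome 14 level was -0.06 in both libraries of TET_KO, against 0.27 to 0.30 in TET_WT, and ran from -0.25 to -0.10 in DNMT_KO, against -0.24 to -0.17 in DNMT_WT. Over all windows of chromosome 8 the median difference of the mean over days was -0.51, with 71.3% called lower, and over chromosome 14 it was -0.39, with 51.1% called lower. For chromosome 16, which carries Etv5, the median was 0.08 and 2.11% were lower. With every chromosome centred on its untested tiles, the mean over days was -0.19 for Dusp4 (limma adjusted p = 0.28), -0.08 for Spry2 (0.67) and -0.35 for Etv5 (0.023). At D2 the centred differences were -0.48 for Dusp4 (0.37), -0.32 for Spry2 (0.58) and -0.71 for Etv5 (0.090).

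**Figure D4:**
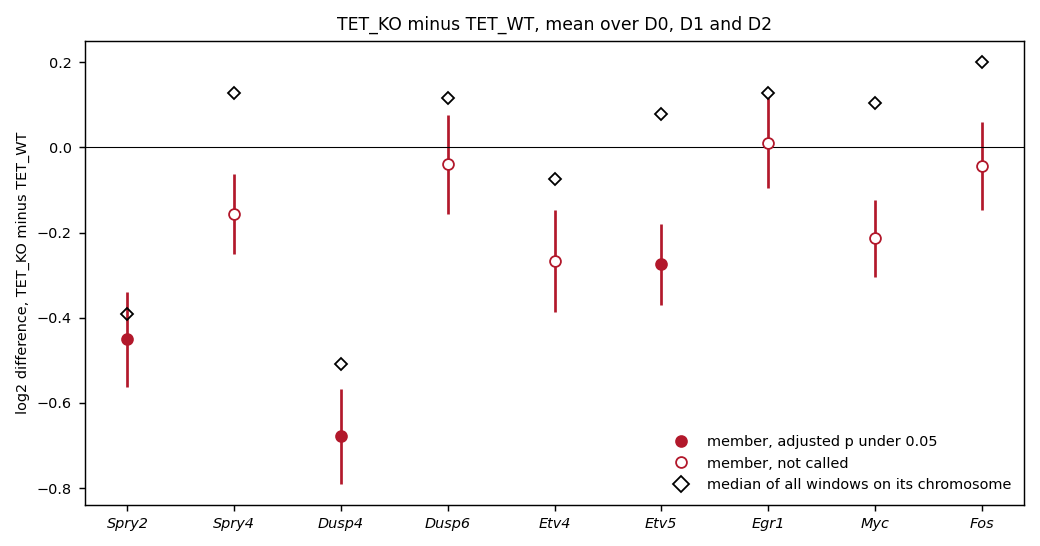
TET_KO minus TET_WT, mean over D0, D1 and D2, of each member window with its SE (filled points are called), and the median over all windows of the same chromosome (diamonds). Dusp4 at -0.68 and Spry2 at -0.45 lie near their chromosome medians of -0.51 and -0.39, and Etv5 at -0.28 lies below its median of 0.08.

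Etv5 stood at -0.10 and -0.09 in TET_KO and at 0.86, 0.32 and 0.47 in TET_WT at D2. At D0 and D1 the lines overlapped, with means of 0.10 and 0.24 in TET_KO and 0.23 and 0.29 in TET_WT. The difference was -0.65 ± 0.18 at D2 (limma adjusted p = 0.047) and -0.28 ± 0.09 over the days (0.039). At D2, 26 of its 30 tested tiles were below 0, with a median tile difference of -0.60 and no tile called. The smallest p was at chr16:22400001-22402000 (-1.70, adjusted p = 0.16). Over the days the tile chr16:22426001-22428000 was called lower (-0.98, 0.026, kept in 12 of 17 fits without 1 library). The D2 call held only without TET_WT replicate 2 (otherwise adjusted p up to 0.32) and under 7 of 15 other settings. The 3-day call held in 6 of 17 fits without 1 library (otherwise up to 0.10 without TET_WT D2 replicate 1).

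**Figure D5:**
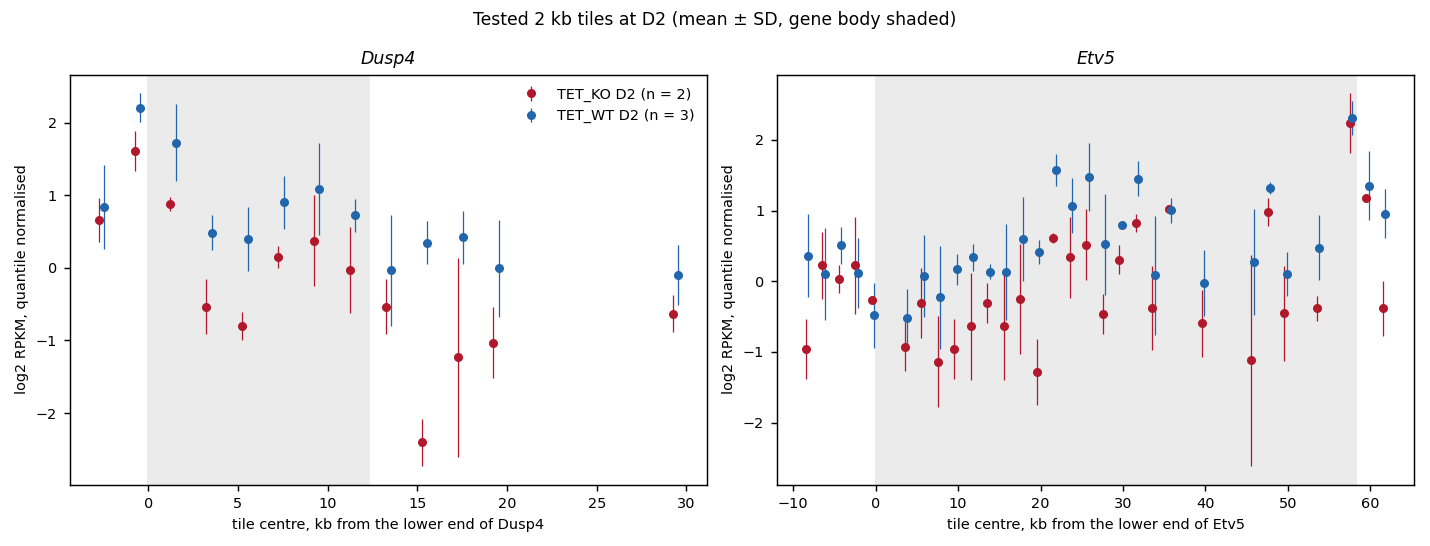
Tested 2 kb tiles of the Dusp4 and Etv5 windows at D2 by distance from the lower end of the gene (kb), as normalised log2 RPKM, mean and SD in TET_KO (n = 2) and TET_WT (n = 3), with the gene body shaded. TET_KO lies below TET_WT at all 13 Dusp4 tiles and at 26 of 30 Etv5 tiles.

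The other 6 members were not called lower or higher in TET_KO. Over the days Etv4 differed by -0.27 (limma adjusted p = 0.12), Myc by -0.21 (0.096), Spry4 by -0.16 (0.26), Fos by -0.04, Dusp6 by -0.04 and Egr1 by 0.01. Of the 117 member tiles, 0 were called at D0 (0.434% of all tiles), 0 at D1 (0.11%) and 11 over the days, all lower (5.83% of all tiles in either direction). They were 8 Dusp4 tiles and 1 each of Spry2, Etv5 and Myc, the last at chr15:61980001-61982000 (-0.84, kept in 5 of 17 fits). Beside the members, the mean level of the fibroblast list (7 of 9 genes measured), which marks feeder cells, ranged from -0.17 to -0.0021 in TET_KO and from -0.41 to -0.17 in TET_WT at D0, and from 0.15 to 0.16 in TET_KO and from -0.03 to 0.05 in TET_WT at D2. Its part in the differences was not tested.

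Whether the time response itself differed between knockout and parent was read from the interaction of line and day. No member was called in any of the 4 interactions, nor was any of the 35284 windows (0%), so a different response was not detectable here. At an unadjusted p under 0.05 there were 1248 windows for TET at D2, 1346 for TET at D1, 1992 for DNMT at D2 and 2394 for DNMT at D1, and 3 of the 36 member values. These were Etv5 in TET at D2 (-0.52 ± 0.24) and Myc in DNMT at D2 (-0.66 ± 0.21, limma adjusted p = 0.72) and D1 (-0.62 ± 0.21, 0.59). The Myc window stood at 0.65, 0.41 and 0.36 in DNMT_KO and at 0.33, 0.03 and -0.28 in DNMT_WT at D0, with means of 0.50 and 0.67 in those lines at D1 and of 0.42 and 0.63 at D2.

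DNMT_KO against DNMT_WT gave 0 called members at each day, where 0.00283% of all windows were called at D0, 0.00283% at D1 and 0.0113% at D2 by limma. At an unadjusted p under 0.05 there were 1 member at D0, 1 at D1 and 0 at D2. The counts over all windows at that limit were 1888 at D0, 2679 at D1 and 3402 at D2. The median difference of the 9 windows was 0.16 at D0, -0.15 at D1 and -0.01 at D2. The largest was Myc at D0 (0.45, adjusted p = 0.72). No member tile was called either (all tiles, 0% at D0, 0.00407% at D1 and 0.0399% at D2). The tile nearest to a call at D2 was the lower end of Etv4 (1.61, adjusted p = 0.17).

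Of 53 further genes of the pathway, all measured, none was called lower with time. In either direction, 400, 1329, 2096 and 1630 of the 35284 windows were called at D2 in TET_KO, TET_WT, DNMT_KO and DNMT_WT. At D1 these counts were 208, 497, 494 and 857. At D2 the list had 0 rises in TET_KO (0.218% of all windows) and 2 in TET_WT (1.53%). These were the receptor Fgfr2 (0.87) and the ligand Fgf5 (1.17). It had 5 rises in DNMT_KO (2.52% of all windows), led by the ligand Fgf8 (0.77), the inhibitor Spred3 (0.75) and Phlda1 (0.70). In DNMT_WT it had 1 (1.89%), the ligand Fgf15 (0.53). At D1 it had 1 rise in DNMT_KO (0.7%), the ETS factor Etv1 (0.92). There were 0 in TET_KO (0.278%), TET_WT (0.714%) and DNMT_WT (1.19%). By role, the D2 calls were 3 of ligands over the lines (5 genes), 1 of receptors (4), 1 of adaptors and kinases (13), 1 of other inhibitors (13) and 2 of other response genes (18). In TET_KO against TET_WT, 4 were lower and 1 higher at D0, with Junb (-0.78) and Fgfr1 (-0.62) among the lower. Of all 35284 windows, 2493 were called at D0 and 4.39% were lower. At D1 there were 2 lower and 2 higher, with Il17rd (-0.64) and Sos1 (0.62) the furthest. Of all windows, 1249 were called at D1 and 2.53% were lower. At D2 there were 3 lower, Ier2 (-0.93), Junb (-0.79) and Il17rd (-0.76), beside 1.59% of all windows. Junb, Fgfr1 and Ier2 lie on chromosome 8 and Il17rd on chromosome 14. Over the days 9 of the 53 were lower and 2 higher, where 8.92% of all windows were lower, and 5 of the 9 lower genes lie on chromosomes 8 and 14. The medians of the 53 over the days (0.01) and at D2 (-0.05) stood beside 0.07 for all windows. None was called in DNMT_KO against DNMT_WT.

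The windows whose profile over the 12 group means was most like the mean of the 9 members were Gm13859 (Pearson r = 0.952), Tmem154 (0.939), Cbx7 (0.928), Gm12299 (0.922) and Gm11517 (0.918), picked from all windows as a description.

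Cells of other types were looked for with marker lists. No primitive endoderm marker of 8 was called at D2 against D0 in any line, and of 6 primitive streak and mesoderm markers Msgn1 fell in TET_WT, DNMT_KO and DNMT_WT. Of 5 trophoblast markers, Tfap2c fell in all 4 lines and Gata3 in DNMT_WT. Of 7 fibroblast markers, Twist2 rose in TET_WT. Over the days in TET_KO against TET_WT, where 8.92% of all windows were lower, 5 of 9 naive markers were lower, of which 3 lie on chromosomes 8 and 14. Of the formative markers Otx2 (-0.58) and Zic2 (-0.61) were lower, both on chromosome 14. The fibroblast markers Twist2 and Prrx1, the trophoblast marker Gata3 and 1 primitive endoderm marker were higher, and 1 primitive endoderm marker was lower.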

How the data were processed

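ATAC-seq libraries were made from 10000 cells with 13 PCR cycles, per the labels' protocols. The tools named are Bowtie2 2.4.1, Trim Galore 0.6.5 and cutadapt 2.3, with the build GRCm38, per the submitters' processing notes. Shifting of read ends, removal of duplicates and masked regions are steps not given in the sources used here. Deposited were log2 RPKM values, made by the authors, for 1362779 tiles of 2 kb in 35 libraries, per the file headers. These were whole multiples of 1 read (within 0.01 read), with an empty tile at 0.9 read, so fold changes of nearly empty tiles depend on that floor and on depth.

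Of 1316897 tiles on autosomes and X, 89669 empty in every D0 and D2 library were left out and the highest 10% by mean were tested (122723 tiles, mean log2 RPKM at least -0.513). They were quantile normalised, and the level of a window is the average over tested tiles from 20 kb before to 20 kb after a gene (35284 windows). Tiles and windows were fitted with limma 3.58.1 in R 4.3.3 with a mean-variance trend and 1 mean per group over all libraries (23 residual degrees of freedom). The mean over days weights the 3 days equally. Scripts were tested on simulated data. The members, the 5 pathway lists (ligands, receptors, adaptors and kinases, other inhibitors, other response genes) and the 6 marker lists (naive, formative, fibroblast, primitive endoderm, primitive streak and mesoderm, trophoblast) were chosen with earlier results of these data known. Named were the 9 members, tiles at gene ends, up to 3 called tiles per member and comparison, the tile of smallest p where none was called, up to 3 called pathway genes per comparison and the 5 windows most like the members. Some called or end tiles of lower size are given by count, and a few genes the rule names are not reported here. Strand came from RefSeq for Spry2, Dusp6, Etv5 and Fos, and the other members' ends are called lower and upper. Alternatives changed the scaling, the tiles tested, the window, the libraries fitted, the chromosome centring, the depth and the test (limma voom on recovered reads).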

Additional observations from a re-analysis of the deposited data

How the results depend on the processing

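The first tally covered the median change of the 9 windows and also the number of called member tiles. It counted 241 of 288 alternatives as unchanged, and 165 of 181 that left out 1 library. For a median this meant a move of less than 1 SD, a limit that did not apply to the tile number. Without 1 library the tile number ran from 29 to 42, against 40. The tally is therefore not a measure of the medians alone. Window and tile calls were kept in 459 of 681 alternatives and lost in 221, and were kept in 271 of 482 fits without 1 library and lost in 211. The Dusp4 tile that starts at 34806001 (TET_KO against TET_WT over the days) reversed to 0.0443 with chromosomes centred. Values as deposited shifted the median of all windows at D1 by 0.45 in TET_KO, 0.63 in TET_WT, 0.45 in DNMT_KO and 0.62 in DNMT_WT, and called 4, 7, 2 and 7 members higher there, but 0 at D2 in any line. The medians that moved were as follows. Values as deposited gave 0.562 in TET_KO, 0.683 in TET_WT, 0.556 in DNMT_KO and 0.914 in DNMT_WT at D1, -0.0243 in DNMT_KO at D2, -0.361 for TET_KO at D1, -0.359 over the days, 0.23 for DNMT_KO against DNMT_WT at D0, and -0.121 (TET) and -0.318 (DNMT) for the D1 interactions. Without a filter on tiles they were 0.247 in TET_KO, -0.119 in DNMT_KO and 0.196 in DNMT_WT at D1, 0.159 in DNMT_WT at D2, -0.349 for TET_KO at D0, -0.364 over the days, 0.105 for DNMT_KO at D2, and -0.11, 0.197, 0.0274 and -0.339 for the interactions. Thinned reads gave 0.153 in TET_KO at D2, 0.507 in DNMT_WT at D1, -0.468 for TET_KO at D2, 0.0264 for DNMT_KO at D0 and -0.0413 for the DNMT interaction at D2. Mean RPKM over all tiles gave 0.0116 in DNMT_KO at D2, 0.232 in TET_WT and 0.204 in DNMT_WT at D1, and 0.0638 and -0.143 for DNMT_KO at D0 and D2. Voom gave 0.208 in TET_KO at D2, 0.242 in TET_WT at D1 and -0.0274 for DNMT_KO at D1. The highest 20% of tiles gave 0.243 in DNMT_KO at D2, 0.082 for DNMT_KO at D0 and 0.14 for the TET interaction at D1, and the highest 5% gave 0.0829 for DNMT_KO at D0 and -0.0671 for the TET interaction at D2. Median centring gave 0.209 in DNMT_WT at D1 and 0.0783 for DNMT_KO at D0. Windows of 10 kb gave 0.398 and of 50 kb 0.216 in DNMT_WT at D1, and 50 kb gave -0.0299 in TET_KO at D2. Called member tiles numbered 40, and 82 as deposited, 19 median centred and 7 in thinned reads. Leaving out 1 library gave ranges of 0.0263 to 0.32 (DNMT_KO) and 0.213 to 0.549 (DNMT_WT) at D2 against D0, 0.173 to 0.431 (TET_WT at D2), -0.0186 to 0.189 and 0.246 to 0.38 at D1, 0.0173 to 0.144 (TET_WT at D1), 0.00299 to 0.217, -0.191 to -0.00235 and -0.221 to 0.00192 for DNMT_KO against DNMT_WT at D0, D1 and D2, -0.415 to -0.107 for the TET interaction at D2, and -0.25 to -0.0745 and -0.308 to -0.0903 for the DNMT interactions at D2 and D1. The causes were not tested. Replicate numbers did not pair the samples, since in no comparison was the correlation of deviations over 0.1 in every same-numbered pair, though it was above 0 in every pair of 3 comparisons. With the replicate block, the median for TET_KO at D2 was -0.288 and Spry2 was called there too (-0.71, limma adjusted p = 0.038), and 42 member tiles were called. Depth limits single tiles most, with 5 reads in the median tested tile of the shallowest library.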
